A study of Homo sapiens with 8 samples.

Results

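The regions described here are the H3K27me3 islands with the most ChIP reads for each input read in LY19WT and LY19Y646F, 2 human lines of immortalized lymphoma B cells. An island is a stretch of the genome that a peak caller for broad marks built from neighbouring enriched windows. High-ratio islands were chosen by their own read counts, so the ChIP and input counts, the ratio, the fold and the input density of an island in its own line are not findings. A high-ratio island had at least 20 input reads, a width of at most 50 kb and a position on chromosomes 1 to 22. Its ratio of ChIP to input reads was at least 12 in LY19WT or at least 9 in LY19Y646F. These limits kept 562 of 58144 islands in LY19WT and 223 of 47432 in LY19Y646F, together 785 of 105576. Before the limit on the ratio, 51499 and 45311 islands met the limits on chromosome, input and width, and these islands, which include the high-ratio ones, are called the eligible islands. High-ratio islands made up 1.09% of the eligible islands in LY19WT and 0.492% in LY19Y646F. The limits differed between the lines, so these shares do not compare the lines.

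LY19WT is labelled as carrying wild-type EZH2, and LY19Y646F as expressing EZH2-Y646F constitutively from a CMV promoter, a viral promoter that is active in most cell types. Both lines were untreated and at passage 10 to 15, and each had 3 H3K27me3 ChIP libraries and 1 input library. Whether LY19Y646F is 1 clone was not given in the sources used here. The labels give 1 island list per line, named beside merged replicates, so no value below has a spread between replicates. No test between the lines was possible. Intervals are exact 95% binomial (Clopper-Pearson) intervals and cover counting error only, and neighbouring islands are not independent of each other.

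EZH2 is the catalytic subunit of Polycomb repressive complex 2, which places methyl groups on lysine 27 of histone H3. The trimethylated form, H3K27me3, marks silenced genes. It forms compact, strongly marked stretches over CpG-rich promoters of developmental genes and broad, weaker domains over gene-poor chromatin. Mutations of EZH2 at Y646 recur in germinal-centre B-cell lymphoma and change the enzyme's preference towards substrates that already carry methyl groups, which raises total H3K27me3. Input is sonicated DNA sequenced without the antibody step, and its density reflects how much DNA was present and how well it was recovered and mapped. A high ratio can therefore come with many ChIP reads, with few input reads or with both.

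High-ratio islands of LY19WT had more ChIP reads and fewer input reads than the other eligible islands, and those of LY19Y646F stood apart mainly by few input reads. These densities are the values that chose the islands and are given as a description. In LY19WT the median was 86.1 ChIP reads per kb (quartiles 72.3 and 101.7), against 57.3 over the other eligible islands, a log2 difference of 0.59. Median input density was 0.793 times the autosomal median of the line (8.41 reads per kb), against 1.02, a log2 difference of -0.36. In LY19Y646F the median was 46.6 ChIP reads per kb (quartiles 42.7 and 50.2) against 41.6, a log2 difference of 0.16. Its median input density was 0.565 times the autosomal median (8.42 reads per kb) against 1.01, a log2 difference of -0.84. The larger part of the difference thus lay in the ChIP reads in LY19WT and in the input reads in LY19Y646F.

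**Figure D1:**
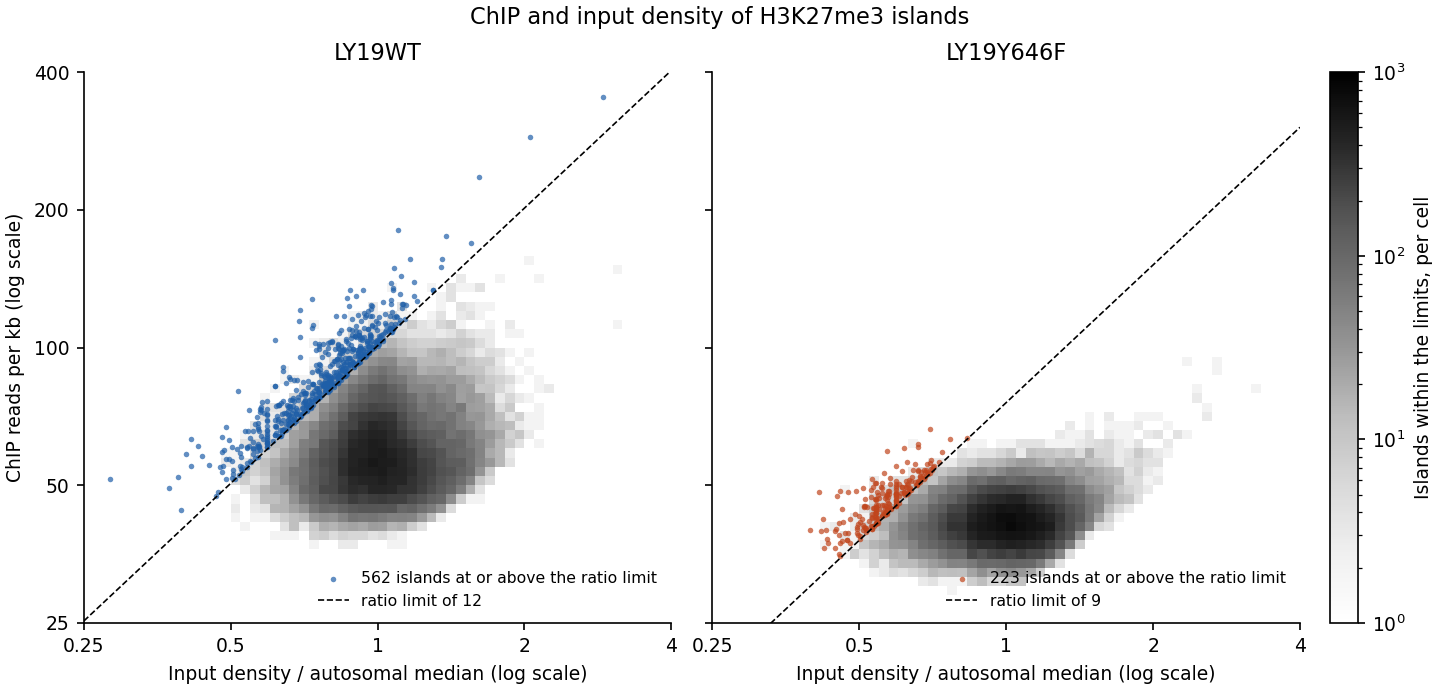
Input density over each line's autosomal median (x axis, log scale) and ChIP reads per kb (y axis, log scale) of eligible islands, with the number of islands per cell in grey, high-ratio islands as coloured points and the ratio limit as a dashed line. Outside the plotted range lie 5 LY19WT and 24 LY19Y646F islands, none of them high-ratio. LY19WT points reach to 353 ChIP reads per kb and spread along the limit to input densities above 1, whereas the 223 LY19Y646F points all lie below 1.

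The same densities were also counted island by island, again as a description of values that chose the islands. In LY19WT, 389 of 562 high-ratio islands (69.2%) were above the 90th percentile of ChIP density of the eligible islands, and 306 (54.4%) were below the 10th percentile of input density. In LY19Y646F, 83 of 223 (37.2%) were above the 90th percentile of ChIP density, whereas 222 (99.6%) were below the 10th percentile of input density. Input was below the autosomal median in 499 LY19WT islands (88.8%) and in 223 of 223 in LY19Y646F. Between 20 and 29 input reads, just above the minimum of the rule, lay 22.9% of the LY19WT and 57.4% of the LY19Y646F islands, against 17.6% and 13.5% of the eligible islands. LY19Y646F high-ratio islands therefore rested on small input counts more often than its eligible islands did.

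Ratios ran from 12 to 21.7 in LY19WT (median 12.9) and from 9 to 13.9 in LY19Y646F (median 9.55). On the authors' fold, which divides the ratio by 1 constant per list (3.07 and 2.62), the limits stood at 3.91 and 3.44 and the medians at 4.19 and 3.65. The islands just inside the LY19WT limit had ratios of 12 and lay on chromosomes 3, 5 and 6, and the 3 just outside had 11.98 and lay on chromosomes 5, 8 and 7. In LY19Y646F the 3 just inside had ratios of 9 on chromosomes 2, 5 and 9. Just outside were 2 islands on chromosome 1 and 1 on chromosome 10 with ratios of 8.98 to 8.99. The lower bound of the ratio's interval stayed at or above the limit in 42 of 562 LY19WT islands (7.47%) and in 1 of 223 in LY19Y646F (0.448%). For most high-ratio islands, and not only those nearest the limit, membership was thus within counting error. The median ratio of the eligible islands was 6.84 in LY19WT and 4.93 in LY19Y646F.

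The highest ratio in LY19WT belonged to chr10:46662801-46671200 (hg19), with 434 ChIP and 20 input reads, a ratio of 21.7 (13.9 to 35.9) and an authors' fold of 7.06. It had 51.7 ChIP reads per kb, below the median of the eligible islands, and its input density was 0.283 times the autosomal median. Its high rank came with low input and not with many ChIP reads. The next, chr6:29596601-29600200, had 434 ChIP and 21 input reads over 3.6 kb, and chr9:135037801-135045400 had 970 and 47, with folds of 6.73 and 6.72. Both had over 120 ChIP reads per kb (120.6 and 127.6), and their input densities were 0.694 and 0.735. None of these 3 islands overlapped a LY19Y646F island, although LY19Y646F islands lay 19.6, 1.2 and 2.4 kb away.

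Of the next 7 by ratio, 6 overlapped a LY19Y646F island. The island chr9:126762601-126773400 combined 1950 ChIP with 100 input reads, at a normal input density of 1.10 and a fold of 6.35. In LY19Y646F, islands covered 87.0% of it at a fold of 2.13. On chromosome 16, chr16:1044601-1053000 had a fold of 5.89, and its LY19Y646F counterpart had 2.82 with 97.6% of the length covered. Also on chromosome 16, chr16:87662601-87667800 had a fold of 6.52 and a counterpart at 2.09. On chromosome 2, chr2:89513201-89519800 stood at 5.89 and 1.93 in LY19Y646F. In these 4 places the fold of LY19Y646F was well below its own limit of 3.44.

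For the other 3 of these 7, chr18:76772201-76778400, chr1:9259201-9266800 and chr15:63335401-63340200, the surroundings differed. The first had a fold of 6.42 and lay in a 10 Mb bin whose median input was 0.439 times the autosomal median in LY19WT. Its LY19Y646F counterpart held 1619 ChIP and 219 input reads, a fold of 2.82 at an input density of 2.96. The second, with a fold of 6.04, lay in a bin at 0.595 in LY19WT, and its counterpart had a fold of 2.39. The third, with a fold of 5.89 at a bin input of 0.991, was 31 kb from the nearest LY19Y646F island. Bin input in LY19WT was thus low in the first and second places, and its part in the ratio was not tested.

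The LY19WT islands with the most ChIP reads were broad. The first, chr1:156368801-156415000, held 6946 ChIP and 523 input reads over 46.2 kb, with a fold of 4.32 and an input density of 1.35, and LY19Y646F islands covered 84.9% of it. On chromosome 20, chr20:56245801-56284200 held 4920 ChIP and 279 input reads at a fold of 5.74, and was covered to 71.4%. The overlapping LY19Y646F islands had folds of 2.38 and 1.86. The other 3, chr8:11266801-11313800, chr6:31528801-31564400 and chr11:67436601-67477200, held 5431, 5116 and 5050 ChIP reads at folds of 5.04, 4.98 and 4.28 and overlapped no LY19Y646F island. The nearest LY19Y646F islands lay 1.8, 5.2 and 51.8 kb from these 3. Large LY19WT counts were thus found both with and without an overlapping LY19Y646F island.

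The widest LY19WT islands included 2 of those just described and 3 others, of 49.2, 48.6 and 48.6 kb, on chromosomes 7, 3 and 10. The island chr7:108061401-108110600 was covered to 31.7% in LY19Y646F, chr3:111812401-111861000 to 7.0% and chr10:30222601-30271200 to 38.3%. Their folds were 3.94, 4.18 and 4.12, and input densities lay between 0.913 and 0.962. Here the ratio was high at near-normal input.

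The densest LY19WT islands, chosen after their values were seen, had raised input as well. On chromosome 11, chr11:3667201-3679400 had 353 ChIP reads per kb at 2.90 times the median input, and on chromosome 20, chr20:47126801-47139000 had 288.7 at 2.06 times. LY19Y646F covered 100% of both, with folds of 2.07 and 2.27. Input was raised there in LY19Y646F too, at 1.87 and 1.23 times its autosomal median.

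In LY19Y646F the highest ratio was at chr11:2009401-2016000, near the start of the short arm. It had 319 ChIP and 23 input reads, a ratio of 13.9 (9.08 to 22.2) and a fold of 5.29, at an input density of 0.414. It lay inside a high-ratio island of LY19WT, chr11:2001601-2018800, with 1598 ChIP and 123 input reads and a fold of 4.23. The LY19Y646F island with the most ChIP reads, chr11:2024601-2056400, followed 8.6 kb further along the chromosome. It held 1596 ChIP and 155 input reads over 31.8 kb at a fold of 3.93, with 34.0% of its length inside LY19WT islands. A stretch near the start of chromosome 11 thus carried both the top ratio and the top read count of the LY19Y646F list.

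The next ratios of LY19Y646F belonged to chr1:2797401-2805200, chr16:3045801-3052400 and chr7:154201-159400, with folds of 4.81, 4.76 and 4.72. They held 378 and 30, 312 and 25, and 309 and 25 ChIP and input reads. Of the 10 islands with the highest ratio, 8 were within 5 Mb of a chromosome end, and the 2 exceptions were chr15:78184001-78190000 and chr11:64368801-64373600. The remaining 4 lay on chromosomes 10, 6, 9 and 7, at folds of 4.40 to 4.62. ChIP density of the 10 ran from 39.8 to 60.2 reads per kb and input density from 0.396 to 0.618, so a high rank came with an input well below the median in each of them.

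The widest LY19Y646F islands were the same 5 as those with the most ChIP reads, at 21 to 31.8 kb. Beside the one on chromosome 11 they were chr9:136534601-136560400, chr17:77363601-77388400, chr2:129116201-129139800 and chr3:13668601-13689600. Their folds lay between 3.44 and 3.93, their input densities between 0.579 and 0.713, and 3 of the 5 were within 5 Mb of a chromosome end. LY19WT islands overlapped 4 of the 5.

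Only 3 places were high-ratio in both lines. They were the chromosome 11 place above, chr2:236561601-236570200 and chr17:48266601-48275800 in LY19WT coordinates. On chromosome 2 the LY19WT island held 678 ChIP and 53 input reads, a fold of 4.16, and the LY19Y646F island chr2:236564401-236568600 held 234 and 23, a fold of 3.88. On chromosome 17 the LY19WT island held 796 and 60, a fold of 4.32, and the LY19Y646F island chr17:48262601-48276200 held 728 and 78, a fold of 3.56. Input was below the median in both lines in all 3 places, at 0.733 to 0.850 in LY19WT and 0.414 to 0.681 in LY19Y646F. The 3 made up 0.534% of the LY19WT and 1.35% of the LY19Y646F high-ratio islands, against 0.266% of the eligible LY19WT islands that overlapped a high-ratio LY19Y646F island and 0.865% in the other direction.

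The share of high-ratio LY19WT islands that had a LY19Y646F island in the same place was above that of the eligible islands. At a minimum of 1 shared bp, 304 of the 562 overlapped LY19Y646F, 54.1% (49.9 to 58.3), against 40.2% of the eligible islands. The list of the other line took no part in choosing them. Among the 223 of LY19Y646F, 137 overlapped a LY19WT island, 61.4% (54.7 to 67.9), against 56.7%, a value inside the interval. With 50% of each island required to lie in the overlap, the shares were 26.5% against 15.8% in LY19WT and 23.8% against 18% in LY19Y646F. The difference in LY19WT depended on the minimum of input reads, with 67.6% against 45.95% of the eligible islands at 40 reads and 43.9% against 38.8% at 10. It was also not particular to the high-ratio islands, since LY19WT islands with ratios of 10 to 12 overlapped in 55.2% of cases and those of 8 to 10 in 48.3%, against 39.0% from 6 to 8 and 33.6% under 6. In LY19Y646F the shares were 53.0% under a ratio of 5, 59.99% from 5 to 6, and 62.1% both from 6 to 7 and from 7 to 9.

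Overlap was set against width, since wider eligible islands of both lines overlapped at higher shares. Median width was 8.2 kb for LY19WT high-ratio islands (quartiles 5.6 and 14) against 6.2 kb for its eligible islands, and 6 kb for both sets in LY19Y646F. LY19WT islands with ratios of 8 to 10 and of 10 to 12 were wider than the high-ratio ones, at 9.6 and 10.2 kb. Up to 6 kb, LY19WT high-ratio islands overlapped LY19Y646F about as often as eligible islands of the same width. The shares were 27.5% against 29.7% up to 4 kb and 33.8% against 33.4% from 4 to 6 kb. Above 6 kb they were higher, at 56.5% (48.5 to 64.3) against 40.5% from 6 to 10 kb, 64.1% (55.9 to 71.6) against 50.02% from 10 to 20 kb, and 80.6% (69.5 to 88.9) against 64.7% from 20 to 50 kb. The LY19Y646F high-ratio islands had no such order, with 61.5%, 59.8%, 64.6%, 52.4% and 80% from the narrowest to the widest class, which held 13, 102, 82, 21 and 5 of them. Each interval held the share of the eligible islands of that width.

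**Figure D2:**
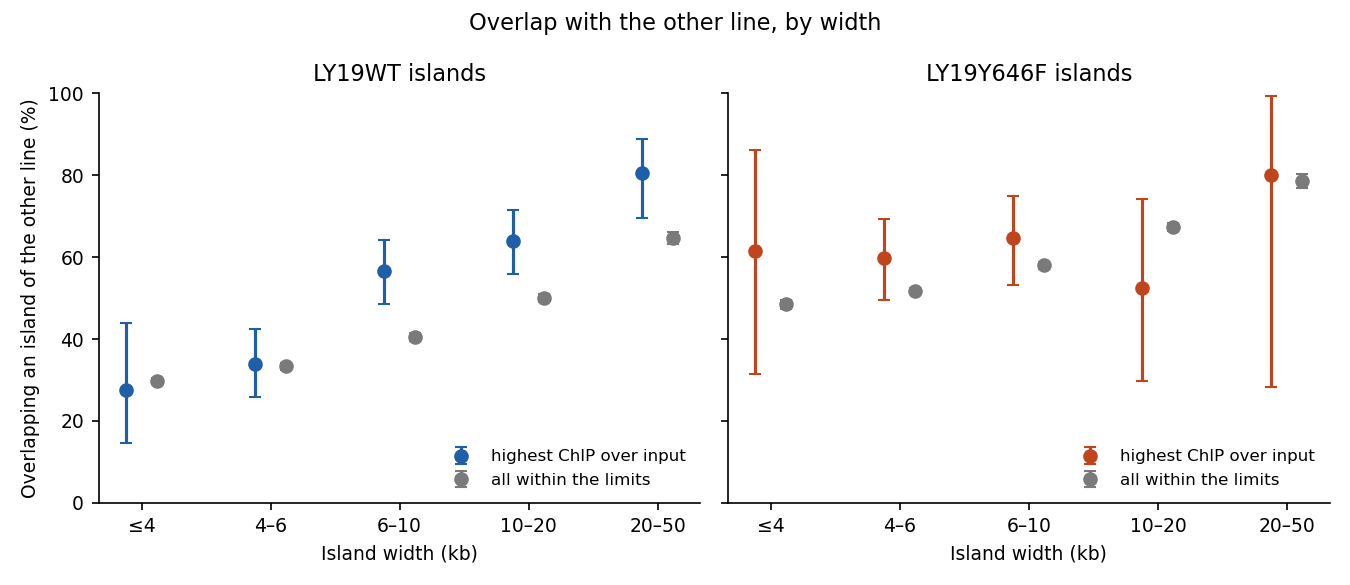
Share of islands that overlapped an island of the other line by at least 1 bp (y axis, %) by island width (x axis, kb), for high-ratio islands (coloured) and all eligible islands (grey), with exact 95% binomial intervals. In LY19WT the coloured points stand above the grey ones from 6 kb upwards, and in LY19Y646F the intervals hold the grey points.

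Where a high-ratio island had a counterpart, the fold of the other line was above that of eligible islands with a counterpart, but far from the limit. The LY19Y646F islands over the 304 LY19WT islands had a median authors' fold of 2.09 (95% interval of the median 2.03 to 2.16), against 1.95 over the 20702 eligible islands that overlapped. Their quartiles were 1.77 and 2.40, and 60.2% were above 1.95. The LY19WT islands over the 137 LY19Y646F islands had a median of 2.69 (2.53 to 2.84) against 2.51 over 25710, with quartiles of 2.07 and 3.07. A ratio at the other line's limit was reached by 3 of 304 counterparts (0.987%) and by 4 of 137 (2.92%), against 0.995% and 2.07% of the counterparts of eligible islands. These counts set no minimum of input reads. Among the 4, chr1:861201-862600 had 7 input reads and was not itself high-ratio. The shift of the fold was therefore small, and counterparts with a ratio at the limit were about as rare as over the eligible islands. It was also not particular to the high-ratio islands. Counterparts of LY19WT islands had median folds of 2.02 at ratios of 10 to 12 and 1.98 at 8 to 10, against 1.92 under 6. Counterparts of LY19Y646F islands had 2.59 at ratios of 7 to 9 and 2.54 at 6 to 7, against 2.48 under 5. The constant that scales the fold differs between lists, so each median is to be read within its own list.

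**Figure D3:**
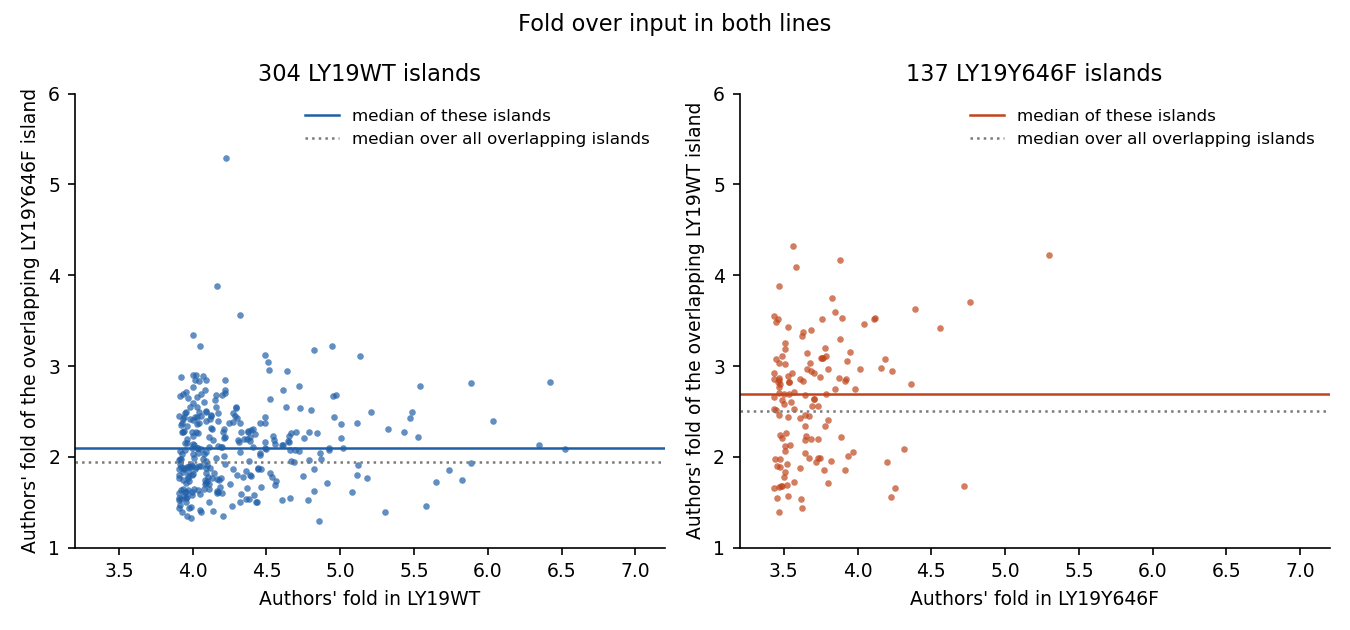
Authors' fold of high-ratio islands in their own line (x axis) and of the overlapping island of the other line (y axis), 1 point per island, with the median of the points (solid line) and of all overlapping eligible islands (dotted line). Medians are 2.09 against 1.95 on the left and 2.69 against 2.51 on the right, and the highest counterparts stand at 5.29 and 4.32.

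Where there was a counterpart, its input in the other line was near normal. Over the 304 LY19WT islands, LY19Y646F input density had a median of 0.996 times its autosomal median, against 0.997 over all overlapping eligible islands. Over the 137 LY19Y646F islands, LY19WT input was 0.999 against 1.04. The LY19Y646F input of 0.565 covers all 223 high-ratio islands and was part of the rule. The LY19WT value covers the 137 with a counterpart and was not part of it. Setting them side by side therefore does not show a difference in input between the lines. ChIP density of the counterparts was 44.5 reads per kb in LY19Y646F against 42.5 over eligible islands, and 67 in LY19WT against 66.5.

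The nearest island on the same chromosome gave a second view that used other reads of the same libraries. In LY19WT, the nearest island, where it was not itself high-ratio, had a median fold of 2.64 over 526 cases, against 2.28 next to eligible islands. Its ChIP density was 62.4 against 57.7 reads per kb, at an input density of 0.991 against 1.00. In LY19Y646F, over 219 cases, the median fold was 2.52 against 1.91, the ChIP density 44.8 against 41.9 reads per kb and the input density 0.792 against 1.00. By these medians, low input extended past the island in LY19Y646F and not in LY19WT, where the neighbours had more ChIP reads at normal input. They leave out 36 LY19WT and 4 LY19Y646F cases whose nearest island was high-ratio, and single places can differ. The median gap to the nearest island was 1.2 kb in LY19WT and 1 kb in LY19Y646F, against 1.8 kb for the eligible islands of each.

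LY19Y646F high-ratio islands were gathered near chromosome ends. Ends were taken as the first and last island of either list, and on chromosomes 13, 14, 15, 21 and 22, whose short arms hold few unique sequences, as the last alone. Of the 223, 96 lay within 5 Mb of an end, 43.0% (36.5 to 49.8), against 12% of the eligible islands. In LY19WT the numbers were 73 of 562, 12.99% (10.3 to 16.1), against 7.89%. The median distance to an end was 7.56 Mb in LY19Y646F against 26.5 Mb for its eligible islands, and 26.8 against 31.4 Mb in LY19WT. The share near ends was larger at higher ratios in LY19Y646F, with 8.39% of eligible islands at a ratio under 5, 12.7% from 5 to 6, 18.1% from 6 to 7 and 26.9% from 7 to 9.

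**Figure D4:**
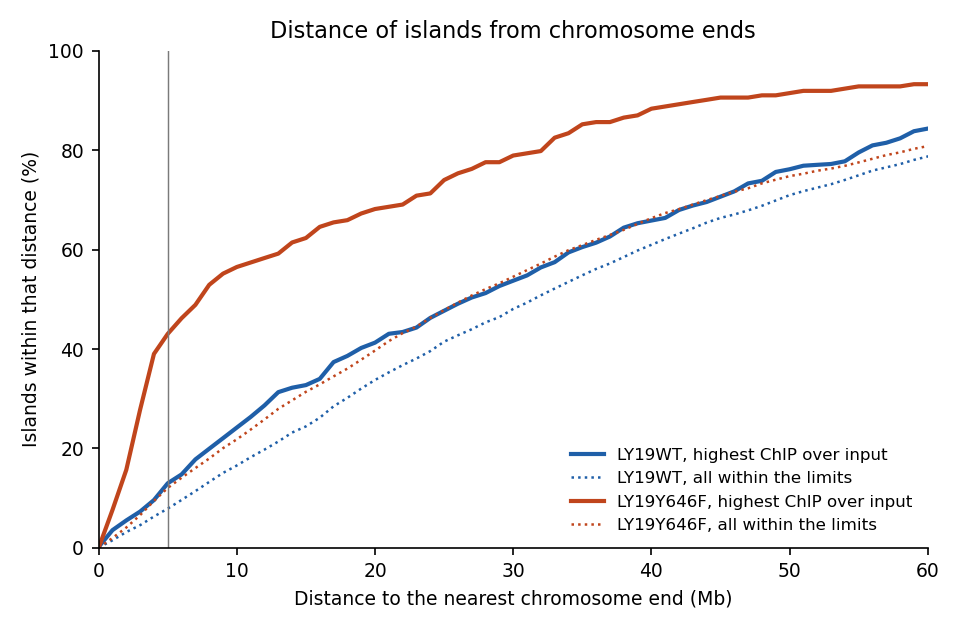
Cumulative share of islands (y axis, %) by distance to the nearest chromosome end (x axis, Mb), for high-ratio islands (solid) and all eligible islands (dotted) of each line, with a vertical line at 5 Mb. The solid LY19Y646F curve reaches 43.0% at 5 Mb, where the other 3 curves stand between 7.89% and 12.99%.

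The share near ends depended on how input entered the rule. It was 67.5% over the 40 LY19Y646F islands with at least 40 input reads and 33.8% over the 613 with at least 10, against 11.96% and 12.3% of the eligible islands under those limits. When the median input of the 10 Mb bin replaced the island's own input, it was 20.2% of 89 islands in LY19Y646F and 21.8% of 325 in LY19WT. Of the 223 LY19Y646F high-ratio islands, 1 was among those 89, and of the 562 in LY19WT, 165 were among the 325. The 89 had a median input of 2.56 times the autosomal median and the 325 of 1.07. In LY19Y646F this setting therefore chose another kind of island, with raised input. Eligible LY19Y646F islands near ends that were not high-ratio had a median input of 0.953 against 1.02 elsewhere, and LY19WT had 1.05 against 1.01.

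LY19Y646F high-ratio islands near the ends and elsewhere differed in how many were shared, and the difference was not tested. Islands near ends came partly in groups, with 0 of 5 overlapping in a group on chromosome 1 and 4 of 4 in one on chromosome 7. The intervals below treat islands as independent and are too narrow for this comparison. Of the 96, 40 overlapped a LY19WT island, 41.7% (31.7 to 52.2), and of the 127 elsewhere, 97 did, 76.4% (68.0 to 83.5). Eligible LY19Y646F islands overlapped in 52.6% of cases near ends and 57.3% elsewhere. Input density, at 0.564 and 0.57, and ChIP density, at 46.4 and 46.6 reads per kb, were alike in both positions. The counterparts in LY19WT had median folds of 2.54 near ends and 2.80 elsewhere, against 2.46 and 2.51 for islands that were not high-ratio. In LY19WT, 45 of 73 high-ratio islands near ends overlapped LY19Y646F (61.6%), close to the 64.3% of eligible islands there. Elsewhere 259 of 489 did (53.0%), against 38.1%.

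High-ratio islands came in groups. In LY19WT, 114 of 562 (20.3%) had another within 100 kb and 329 (58.5%) within 1 Mb, against 7.52% and 37.2% of the eligible islands. In LY19Y646F, 66 of 223 (29.6%) and 130 (58.3%) did, against 4.22% and 18.4%. The nearest island was itself high-ratio for 6.41% in LY19WT and 1.79% in LY19Y646F, against 0.973% and 0.435% of eligible islands. The largest LY19WT group was 5 islands from 46590601 to 46671200 on chromosome 10, with folds of 3.99 to 7.06 and input densities of 0.283 to 0.573. LY19Y646F had no island in this stretch. A second group of 4 followed from 48016201 to 48181600, with input densities of 0.391 to 0.651 and 1 LY19Y646F island. The 10 Mb bin that holds both groups had a median input of 0.931 in LY19WT. These stretches held 9 and 10 LY19WT islands. The input densities given are those of the high-ratio islands alone, which the rule chose partly by input. They therefore do not show whether input was low over the stretches as a whole.

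Other LY19WT groups had 3 islands each and differed in input. From 54369801 to 54410200 on chromosome 12, 3 high-ratio islands had folds of 4.54, 5.54 and 4.72 and held 879, 647 and 1480 ChIP reads. Their input densities were 0.749 to 0.904. LY19Y646F covered them to 95.3%, 100% and 95.1%, at folds of 2.23 for the first and 2.78 for the island that spanned the others. On chromosome 4, 3 islands from 153592601 to 153669800 had input densities of 0.919 to 0.988 and folds of 3.94 to 4.43, and 1 of them overlapped LY19Y646F, where the only island of the stretch had a fold of 1.86. On chromosome 22, 3 islands from 22908001 to 23024000 had low input, 0.429 to 0.522, beside a LY19Y646F median of 1.01 over the 10 islands there. Groups of 3 also lay on chromosome 8, from 6811801 to 6857800, from 7086801 to 7232200 and from 12079401 to 12219000, with input densities of 0.484 to 0.916. The last, from 46940201 to 47016800 on chromosome 22, had 0.712 to 0.971.

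In LY19Y646F the largest group was 5 islands from 2797401 to 3021200 on chromosome 1. This stretch had 20 LY19Y646F islands and none in LY19WT. Folds of the 5 ran from 3.52 to 4.81 and input densities from 0.457 to 0.699. The bin from 0 to 10 Mb had a median input of 0.595 in LY19WT and 0.873 in LY19Y646F, and what part low LY19WT input had in the missing LY19WT islands was not tested. On chromosome 22, 4 islands from 48918601 to 49069800 lay in a stretch of 12 LY19Y646F islands, again with no LY19WT island, at a bin input of 1.02 in LY19WT and 0.910 in LY19Y646F. On chromosome 7, 4 islands from 154201 to 202200 each overlapped LY19WT, whose islands there had folds of 1.44 to 1.94 and a median input of 1.25. A further 4 lay from 322801 to 550000, of which 1 overlapped. Groups of 3 lay on chromosomes 1, 2, 9 and 17, with folds of 3.44 to 4.27 and input densities of 0.498 to 0.662. LY19Y646F groups near ends therefore included stretches with no LY19WT island and a stretch shared throughout.

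The share of islands far from any island of the other line was lower among high-ratio islands than among eligible ones. No LY19Y646F island lay within 100 kb of 91 of 562 LY19WT islands, 16.2% (13.2 to 19.5), against 27.9%. No LY19WT island lay within 100 kb of 18 of 223 LY19Y646F islands, 8.07% (4.85 to 12.5), against 17.1%. The highest ratios among the 91 were at chr7:101926401-101929600, with 328 ChIP and 20 input reads and a fold of 5.34, and chr8:145561001-145566400, with 446 and 28 and a fold of 5.18. They were followed by chr8:87733601-87739000, chr3:115801601-115808600 and chr4:113438601-113443800, with folds of 4.97 to 5.01. The last was 2240.2 kb from the nearest LY19Y646F island. Among the 18, the 5 highest ratios were 3 of the chromosome 1 group and 2 on chromosome 22, chr22:48762601-48769600 and chr22:48918601-48925000, with folds of 4.06 to 4.81.

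High-ratio islands were spread unevenly over the chromosomes. Input reads are part of the rule, so the input of each chromosome named is given beside its share as a description only. On chromosome 15, 18 of 557 eligible LY19Y646F islands were high-ratio, 3.23% (1.93 to 5.06), on chromosome 4 9 of 322, 2.80% (1.29 to 5.24), and on chromosome 14 7 of 434, 1.61% (0.651 to 3.29). Median input over the eligible islands of these chromosomes was 0.781, 0.854 and 0.785 times the autosomal median. Input was 1.19 times the median on both chromosomes 18 and 20, and 1 of 929 (0.108%) and 4 of 1928 (0.207%) were high-ratio there. Chromosome 13 had the lowest share, 1 of 1159 (0.0863%), at an input of 0.998. Of the 18 on chromosome 15, 15 overlapped LY19WT, and 1 was near the end. The same shares over the 557 eligible islands of this chromosome were not computed, so these counts do not set the 18 apart from them. The chromosome with the second highest input in LY19WT was chromosome 1, at 1.14 times, with 38 of 4207 (0.903%), and the highest was chromosome 13, at 1.40 times, with 1 of 1249 (0.0801%). The interval on chromosome 1 (0.64 to 1.24) held the 1.09% of all eligible LY19WT islands.

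In LY19WT the highest shares were on chromosome 22, at 18 of 719, 2.50% (1.49 to 3.93), and chromosome 19, at 19 of 878, 2.16% (1.31 to 3.36). Median input there was 1.04 and 1.08 times the autosomal median, above that of several chromosomes with lower shares. Chromosomes 2 and 10 held the most high-ratio islands, 53 each, of 4923 (1.08%) and 3167 (1.67%) eligible islands. Their median input was 0.978 and 0.991. The share on chromosome 2 was close to the 1.09% of all eligible LY19WT islands. After chromosome 13, the lowest shares were on chromosome 7, at 17 of 3171, 0.536% (0.313 to 0.857), and chromosome 5, at 20 of 2884, 0.693% (0.424 to 1.07). Chromosome 7 had a median input of 1.09 and chromosome 5 of 0.977. In LY19Y646F, chromosomes 16 and 22 followed chromosomes 15, 4 and 14, with 12 of 1182 (1.02%) and 11 of 1214 (0.906%). Median input there was 0.965 and 0.977. On each, 7 were within 5 Mb of an end. The share near ends among the eligible islands of each chromosome was not computed, so these counts show no excess near ends. The single LY19WT high-ratio island of chromosome 13, chr13:113676201-113683800, had a fold of 3.98 and also lay near the end of the chromosome.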

How the data were processed

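H3K27me3 ChIP libraries, 3 per line, and 1 input library per line were made from fixed, sonicated cells, per the labels' protocols. The build was hg19 and the tools included SICER, bedtools, SAMtools 1.3.1 and Bowtie2 2.2.9, per the submitters' processing notes, with no version of SICER or bedtools stated there. Per the labels, SICER peaks were called against input at an FDR of 0.001, with 1 list per line beside a file of merged replicates. Deposited counts are raw ChIP and input reads per island. The deposited fold is the ratio of these counts divided by 3.07 in LY19WT and 2.62 in LY19Y646F, as recovered from the values. Deposited p-values and FDR are the authors' and were not used here, since the largest FDR of a high-ratio island was 2.5e-67 in LY19WT and 1.7e-43 in LY19Y646F. Islands held 37556030 ChIP and 4949411 input reads in LY19WT, and 17410034 and 3527109 in LY19Y646F. Totals of whole libraries were not used here.

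Positions are 1-based. The counterpart of an island is the island of the other line with the longest overlap, and coverage sums all overlaps. Relative input is input reads per kb over the median of autosomal islands, and 10 Mb bins needed at least 5 islands. The interval of a median comes from order statistics. Scripts ran in Python 3.11.15 (scipy 1.17.1, pandas 2.3.3, numpy 2.4.6, matplotlib 3.10.9) and were tested on simulated lists with planted islands. Named regions were the 10 highest ratios, the 5 largest ChIP counts, the 5 widest, those high in both lines, the 3 on each side of the limit and the 5 highest ratios with no island of the other line within 100 kb. Groups, chromosomes and the densest islands were described after their values were seen. The rule, regions and alternatives were chosen with earlier results of these data known. Gene, sequence and base composition comparisons were planned and not run, because the available annotation follows GRCh38.p14 and the islands hg19, so genes were not analysed here.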

Additional observations from a re-analysis of the deposited data

Results flagged for a closer look

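Islands outside the limits also reached the ratio limits and take no part in the comparisons above. With under 20 input reads on chromosomes 1 to 22, 621 of 5462 LY19WT islands (11.4%) had a ratio of at least 12, with a median of 10 input reads and a median width of 2.4 kb. In LY19Y646F, 450 of 1851 such islands (24.3%) had a ratio of at least 9, with a median of 13 input reads. On chromosome X, 47 of 111 LY19WT islands with at least 20 input reads and a width of at most 50 kb reached the limit, and 0 of 23 did in LY19Y646F. Wider than 50 kb, 23 of 893 autosomal LY19WT islands (2.58%) reached it, with a median width of 92.8 kb, and 0 of 213 did in LY19Y646F. The ratio of at least 12 or 9 was therefore not confined to the islands described above.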

How the results depend on the processing

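No paired analysis was possible because each line has 1 island list and no list per replicate, and for the same reason no replicate could be left out. Of 102 values recomputed, 54 moved by less than the counting interval (for counts, less than 1.5 times) and 48 by more. With ratio limits of 10 and 8, islands numbered 3046 and 765, relative input was 0.847 and 0.622, LY19WT width 9.8 kb and the LY19Y646F share near ends 35.4%. With limits of 14 and 10, islands numbered 130 and 60, relative input was 0.755 and 0.529, the shares near ends 18.5% and 50%, and the LY19WT fold over LY19Y646F islands 2.96. With a fold of at least 3.5 in both lines, LY19WT had 1595 islands at a relative input of 0.828 and a width of 9.4 kb. With at least 40 input reads, islands numbered 355 and 40, relative input was 0.861 and 0.602, width 12.2 and 12.3 kb, LY19WT overlap 67.6% and the LY19Y646F share near ends 67.5%. With at least 10, islands numbered 873 and 613, relative input was 0.661 and 0.533, width 5.4 and 3.8 kb, LY19WT overlap 43.9% and the LY19Y646F share near ends 33.8%. Overlap of 50% of the high-ratio island gave 37.0% and 48.0%, and of 50% of both islands 26.5% and 23.8%. These alternatives were planned, other than for shares near ends. Added after seeing the data, the input of the 10 Mb bin in place of the island's own gave 325 and 89 islands at a relative input of 1.07 and 2.56, with widths of 13 and 10.4 kb, overlap of 77.5% and 44.9%, shares near ends of 21.8% and 20.2%, and a LY19WT fold over LY19Y646F islands of 2.17. Without chromosomes 4, 14 and 15, also added, relative input in LY19Y646F was 0.575. The cause was not tested, except that limits on the ratio and on input reads set the number of islands by construction. The comparison with gene starts and that of base composition were not run. The number of input reads limits each ratio, at a median of 53 per high-ratio island in LY19WT and 27 in LY19Y646F.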
